A study of Helicoverpa armigera with 6 samples.

Results

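Tandem arrays are runs of neighbouring genes read in the same direction, and the arrays described here were found from gene positions and lengths alone. The annotated genes of the *H. armigera* table were sorted along each scaffold, and an array was a run of 4 or more consecutive genes on 1 strand. Each gap to the next gene was at most 10000 bases, and the longer gene of each adjacent pair was at most 1.5 times as long as the shorter. The rule gave 89 arrays with 442 genes, out of 17082 annotated genes and 18203 genes in the whole table. Of the 442 array genes, 181 reached 0.5 FPKM in at least 3 of the 6 libraries and were tested. FPKM relate the fragments of a gene to its length and to a divisor for each library.

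The libraries were 3 from larvae injected with siNC, a control siRNA against a *C. elegans* gene, and 3 from larvae injected with siHDAC3, an siRNA against *HDAC3*. Both groups were injected as freshly molted final-instar larvae, and RNA was taken from whole insects. The sources used here do not give the strain, the time from injection to RNA collection or the number of larvae per library, so p-values measure only the spread between these libraries. In whole insects, fewer cells of a type and less RNA per cell cannot be told apart. Fragments on genes ranged from 10084667 to 12389053 per library. By the divisors of the deposited values, 1 fragment per kilobase of gene was worth 0.103 to 0.129 FPKM in the siNC libraries and 0.0596 to 0.0845 FPKM in the siHDAC3 libraries. Of the identifiers in the whole table, 1 was found in the reference gene table used here (RefSeq, ASM3070526v1), and none of the 442 array identifiers was. No identifier was assigned to *HDAC3*, so knockdown of the target was not analysed here, and array genes are given by scaffold and by their place in the array, counted along the scaffold. The sources used here do not name the genome build of the coordinates.

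Tandem arrays usually arise when a gene is copied next to itself by unequal crossing over, and the copies then change in sequence and in use. In moths, arrays are known for digestive enzymes such as trypsins and lipases, for detoxification enzymes, for cuticle and chorion proteins and for receptors of smell and taste. Neighbouring copies may share regulatory DNA, or may be expressed in different tissues or stages. HDAC3 removes acetyl groups from histones as part of a corepressor complex. The rule used here reads no sequence, so the genes of an array are neighbours of similar length and are not known to be copies. Reads that match several copies may have been divided among them, which was not tested.

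The arrays lay on 71 scaffolds, of which 13 carried more than 1 array and 1 carried 4. Arrays of 4 genes were the most frequent, with 51 arrays, followed by 21 arrays of 5 genes and 7 of 6 genes. There were 5 arrays of 7 genes, 2 of 8, 1 of 12 and 2 of 14. The median gap between neighbours was 1908 bases, and 5 of the 353 neighbouring pairs overlapped, so that their counts are uncertain. The limit on length was seldom approached, with a median length ratio of 1.03, and in 210 pairs (59.5%) the lengths differed by at most 5%. The pair nearest to the limit inside an array had a ratio of 1.49, and the nearest one excluded had 1.51. For the gap, these values were 9934 and 10227 bases. Array genes had a median length of 1088.5 bases against 1356 for the annotated genes outside arrays. Their length was a multiple of 3 in 85.5% of cases against 63.9% outside, so for most of them it is a coding length.

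Array genes were detected less often than other genes. Of the 442 genes, 127 (28.7%) had no fragment in any library, against 14.9% of the annotated genes outside arrays. The share past the filter was 41.0% inside arrays and 61.6% outside. A closer comparison is with 2139 genes that lay in same-strand runs with the same limit on gaps but outside arrays, of which 51.2% passed and 20.6% had no fragment. These shares are descriptions, with no test. In 10 arrays, holding 48 genes, no library had a fragment, and in 28 arrays no gene passed. Another 14 arrays had 1 gene past the filter and 47 had at least 2, with all genes past it in 11. The array gene just inside the filter had 0.503 FPKM in its third-highest library, and the nearest one outside had 0.484. A library without a fragment allows up to 3 fragments by counting error, so these genes were not detectable at this depth.

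Few array genes with an uninterrupted model, in which no intron is annotated, passed the filter. The gene length equalled the distance from start to end in 76 array genes, of which 6 (7.89%) passed the filter. Outside arrays, 1010 of 2330 such genes (43.3%) passed. An example is the array of 5 genes on KZ149810.1, chosen after its values were seen, in which all 5 models were uninterrupted and no library held a fragment.

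The array genes took a larger part of the siNC libraries than of the siHDAC3 libraries. They held 4.80%, 1.60% and 2.31% of all fragments in siNC replicates 1, 2 and 3, and 0.416%, 0.431% and 0.679% in siHDAC3 replicates 1, 2 and 3. The groups did not overlap, and siNC replicate 1 stood highest. The 5 arrays with the largest summed FPKM carried much of this. Without them the shares were 2.39%, 0.529% and 0.779% in siNC and 0.321%, 0.372% and 0.534% in siHDAC3. siNC replicate 2 then fell just under siHDAC3 replicate 3, so the groups overlapped.

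**Figure D1:**
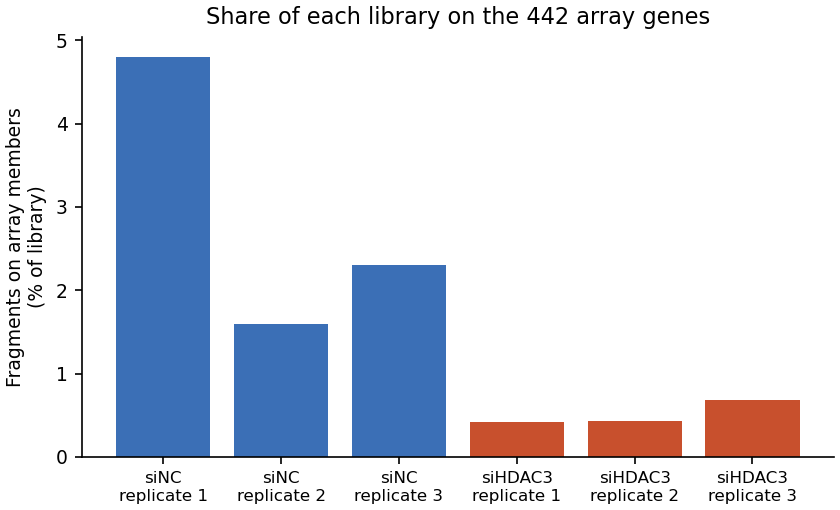
Bars give the percent of the fragments of each library that fell on the 442 array genes (y axis), for siNC (blue) and siHDAC3 (orange) replicates. The siNC libraries lay between 1.60% and 4.80%, all above the siHDAC3 libraries at 0.416% to 0.679%.

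The comparison of siHDAC3 with siNC asks which genes change when *HDAC3* is targeted. log2(FPKM + 1) was fitted with limma over all 11093 tested genes of the table, and calls were made where p, adjusted over all of them by Benjamini-Hochberg, lay under 0.05. Of the 181 tested array genes, 75 (41.4%) were called lower in siHDAC3 and 2 (1.10%) higher, and 104 were not called. Over all tested genes, 11.1% were called lower and 4.04% higher. In same-strand runs outside arrays, 179 of 1095 tested genes (16.3%) were called lower and 50 (4.57%) higher. The median log2 change of the tested array genes was -2.33, beside -0.02 for all tested genes and -0.11 for the runs outside arrays. The 75 genes called lower had log2 changes from -9.79 to -0.87 with a median of -4.40. In each of them every siHDAC3 library lay below every siNC library, as in 21.6% of all tested genes. Only 30 of the 75 had a siHDAC3 library at 0.5 FPKM or more. In the others the filter itself set this order.

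**Figure D2:**
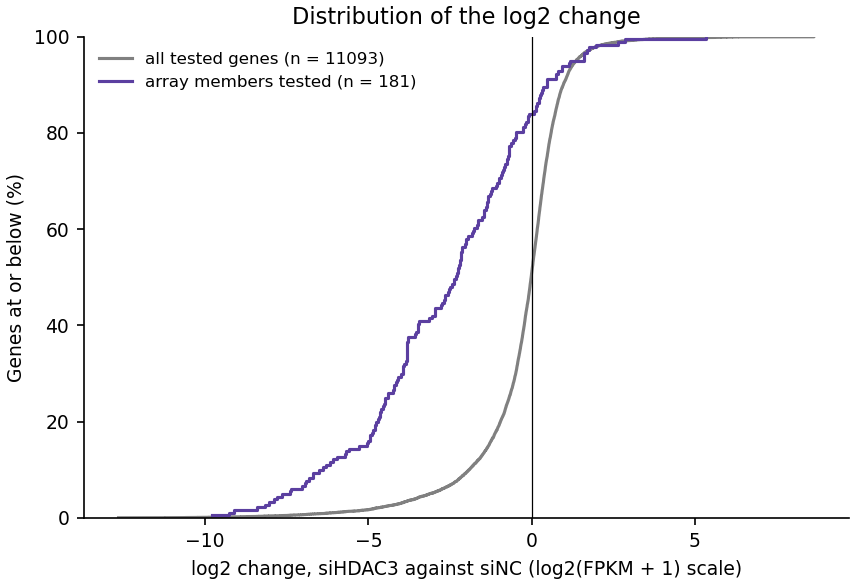
Cumulative percent of genes (y axis) at or below a log2 change between siHDAC3 and siNC on the log2(FPKM + 1) scale (x axis), for the 181 tested array genes (purple) and all 11093 tested genes (grey). The array genes had a median of -2.33 and all tested genes one of -0.02.

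The filter itself favours genes that differ between groups, because a gene may pass through 1 group alone. Of the 181 array genes, 60 passed with no siHDAC3 library at 0.5 FPKM and 1 passed with no siNC library at that level, against 443 and 98 of all 11093. Such genes had to differ between groups. Of the other 120 array genes, 30 were called lower and 1 higher, beside 922 of 10552 (8.74%) lower among all genes that did not pass through 1 group alone. With no filter on low values, 57 of the 315 array genes with a fragment (18.1%) were called lower, beside 6.46% of all 15523 genes, and the median log2 change of these array genes was -0.82. The number called lower was 39 (21.5%) without siHDAC3 replicate 3, beside 6.21% of all tested genes. It was between 50 and 81 without any other library, beside 5.98% to 9.82% of all tested genes. With limma voom on recovered fragments it was 47 (26.0%), beside 8.92%.

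The scaling between libraries moved all genes together. Dividing each library by its summed FPKM put the overall median at 0.68 on the log2 scale, and 2868 genes were called higher with 922 lower, against 448 higher and 1232 lower with the deposited values. Under quantile normalization the median was 0.27, with 1008 higher and 1017 lower. Relative to the median of all genes, the median of the array genes was -2.31 with the deposited values, -2.59 with scaling to the sum and -2.34 with quantile normalization. The number of array genes called lower was 76 and 73 under these scalings, and the number called higher was 10 and 6.

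The spread among the siNC libraries was wide at the array genes. siNC replicate 1 was the highest siNC library in 124 of the 181 tested array genes (68.5%), beside 37.4% of all tested genes, and siNC replicate 2 was the lowest in 60.2%, beside 36.5%. The ratio of the highest to the lowest siNC library had a median of 6.97 over the array genes and 1.87 over all tested genes. The part of this spread in the results was not tested beyond leaving out each library. Without siNC replicate 1, 65 array genes were called lower, beside 8.37% of all tested genes.

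Levels in siNC larvae were high for a part of the array genes. The mean FPKM in siNC was at least 100 in 48 of the 181 tested genes (26.5%), beside 9.39% of all tested genes. The mean in siHDAC3 was at least 100 in 10 of the 181, beside 769 of all 11093. The median over the tested array genes was 29.8 FPKM in siNC and 0.97 FPKM in siHDAC3, beside 7.91 and 6.91 FPKM over all tested genes. The array medians include the 60 genes that passed the filter through siNC only. In 27 tested array genes, from 20 arrays, no siHDAC3 library held a fragment, while the siNC libraries together held between 13 and 16919. As 3 fragments over the group cannot be told from 0, the bounds ran from at least 7.30-fold lower to at least 9497-fold lower, and 23 of the 27 were called lower. All such bounds given here use the divisors of the deposited values, 7751255 to 9717215 in siNC and 11829387 to 16787229 in siHDAC3. With the fragments on genes of each library in their place, the bounds would be smaller. Each of the 27 passed the filter through siNC only, so that a lower level in siHDAC3 was set by the filter. Among all 11093 tested genes, 151 had no fragment in siHDAC3 and 9 none in siNC. No tested array gene was without a fragment in siNC.

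Both tested neighbours had log2 changes of the same sign in 80 of 101 neighbouring pairs within arrays (79.2%, Wilson 95% interval 70.3% to 86.0%, which covers counting error only). As 84.0% of the tested array genes lay below 0, the shares of signs alone would give 73.1%, a value within this interval. The interval takes the pairs as independent, which they are not, so it cannot decide whether these shares differ. Of same-strand neighbours within 10000 bases outside arrays, 1395 of 2298 pairs (60.7%) had the same sign. Among those with a length ratio of at most 1.5 it was 404 of 676 (59.8%). The shares of signs alone, taken over all annotated genes outside arrays and not over these pairs, would give 50.01%. In same-strand runs outside arrays, 56.1% of the tested genes lay below 0. For the 60 array genes that passed the filter through siNC only, the sign was largely fixed by the filter. Genes of 1 array share their surroundings and pairs share genes, so no p is given. Both neighbours were lower in 73 pairs and both higher in 7. Both were called lower in 23 pairs, no pair had both called higher, and in none were 2 neighbours called in opposite directions. The median absolute difference in log2 change between neighbours was 1.62 inside arrays and 0.64 outside. The median ratio of their levels over all libraries was 5.71 inside arrays and 3.42 outside.

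Among the 47 arrays with at least 2 tested genes, all tested genes were lower in 30, all were higher in 1, and 16 had changes of both signs. At least 1 gene was called in 41 of the 89 arrays, only lower in 39, only higher in 1 and in both directions in 1. In 18 arrays at least 2 genes were called lower, and in 9 arrays every tested gene of at least 2 was called lower. No array had 2 genes called higher. These counts include the 60 of 181 tested genes that passed the filter through siNC only, whose direction was largely set by the filter. Of the 75 array genes called lower, 30 did not pass through 1 group alone. Such counts were not made for runs outside arrays. When FPKM was summed over each array, the siHDAC3 libraries lay entirely below the siNC libraries in 40 of the 79 arrays with a fragment and entirely above in 2. Among single tested genes of the whole table, 21.6% lay entirely below and 16.5% entirely above. For the tested array genes these counts were 111 below and 9 above.

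**Figure D3:**
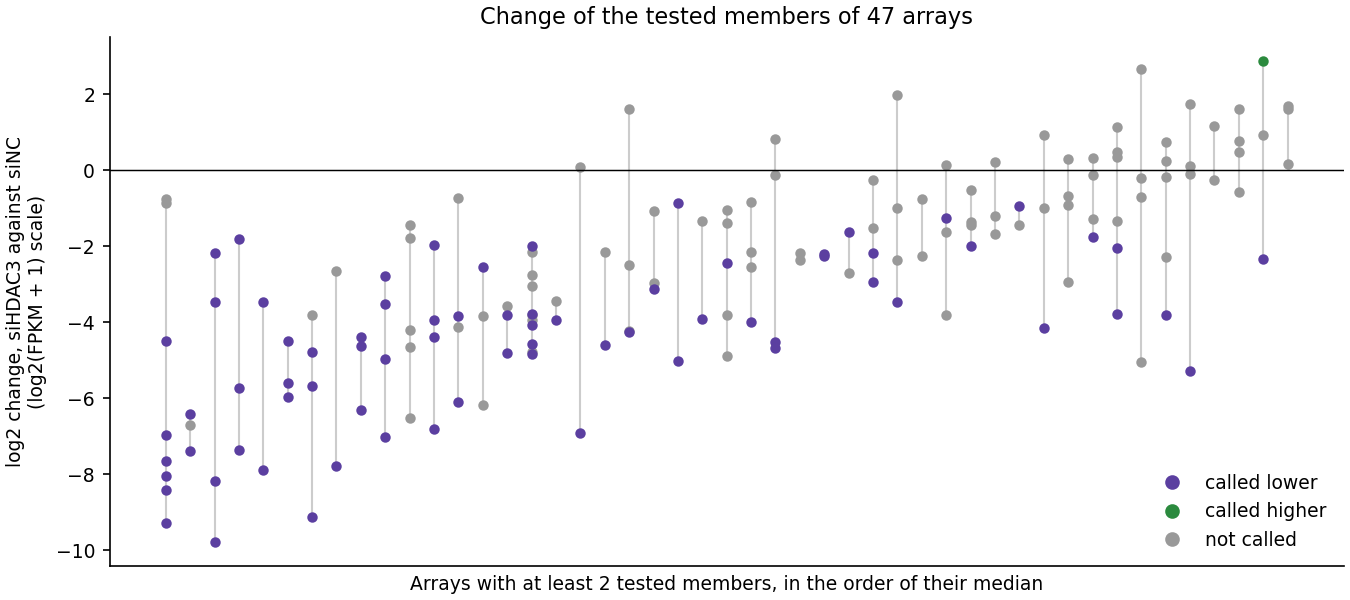
Each column is 1 of the 47 arrays with at least 2 tested genes, ordered by the median, and each point is the log2 change of a gene between siHDAC3 and siNC on the log2(FPKM + 1) scale (y axis), with grey lines from the lowest to the highest gene. In 30 arrays every point lies below 0. Genes that passed the filter through siNC only are included, and their direction was largely set by the filter.

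A single gene usually led its array. In the 47 arrays, the leading gene held a median of 66.2% of the summed mean FPKM in siNC, with a range from 34.9% to 99.7%, and more than 50% in 38 arrays. In siHDAC3 the median was 82.8%. The largest of a few genes holds a large share by construction, and no such share was taken for runs outside arrays. The same gene led in both groups in 26 arrays. Larger arrays had a larger share of genes called lower. This share was 22 of 79 tested genes (27.8%) in arrays of 4, 32 of 63 (50.8%) in arrays of 5 or 6 and 21 of 39 (53.8%) in arrays of 7 to 14, while the share past the filter was alike (38.7%, 42.9% and 42.9%). At the first or last place of an array, 24 of 72 tested genes (33.3%) were called lower, and at inner places 51 of 109 (46.8%). Both genes called higher stood at an end. The 60 tested genes that passed the filter through siNC only are counted here, and their direction was largely set by the filter. Among the larger arrays, they made up 4 of 4 calls in the array of 14 genes on KZ149811.1. They made up 5 of 6 calls on KZ149969.1 and 2 of 5 on KZ149798.1. The shares by size and by place were not separated from this, and none of them was tested.

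The array with the most genes called lower, 6 of its 8, lay on KZ149969.1 (416579 to 533930, plus strand). Its summed FPKM was 4808, 636 and 1606 in siNC replicates 1, 2 and 3 and 0.778, 3.43 and 1.87 in siHDAC3 replicates 1, 2 and 3. The inner genes at places 2 to 6, each between 2856 and 3090 bases long, were the abundant ones. HaOG205140, at place 3 (454984 to 462356), had 1655, 297 and 508 FPKM in siNC, from 39060, 8802 and 12539 fragments. In siHDAC3 it had 0.0391, 0 and 0 FPKM, from 2, 0 and 0 fragments. The groups were far apart, and siNC replicate 1 was highest. On the log2 scale the gene changed by -9.28 (SE, the standard error, 0.60; limma adjusted p = 0.00048). This gene and those at places 2, 4, 5 and 6 passed the filter through siNC only, so that their direction was set by the filter. All 6 calls were kept when any 1 library was left out.

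The neighbours at places 2, 4 and 6 had the same order of siNC libraries. Place 2 had 652, 75.9 and 173 FPKM in siNC and 0.0587, 0 and 0.0455 in siHDAC3 (log2 change -7.64, SE 0.73, adjusted p = 0.00161). Place 4 had 759, 98.9 and 245 FPKM in siNC and a single fragment over the siHDAC3 libraries (log2 change -8.04, adjusted p = 0.00111). Place 6 had 1289, 81.6 and 565 FPKM in siNC and 0.154, 0.301 and 0 in siHDAC3 (log2 change -8.42, adjusted p = 0.00279). In each, siNC replicate 2 was the lowest siNC library and still far above siHDAC3. The genes at places 5 and 8, with log2 changes of -6.95 and -4.49, were also called lower. The remaining genes had low values throughout. At place 1 the FPKM were 1.87, 1.84 and 2.20 in siNC and 0.321, 0.797 and 0.863 in siHDAC3, without overlap but not called (adjusted p = 0.068). At place 7 the groups overlapped, with 6.65, 0.622 and 0.395 FPKM in siNC and 0, 1.71 and 0.296 in siHDAC3 (log2 change -0.77, adjusted p = 0.521), and without siNC replicate 1 the sign of that change turned.

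**Figure D4:**
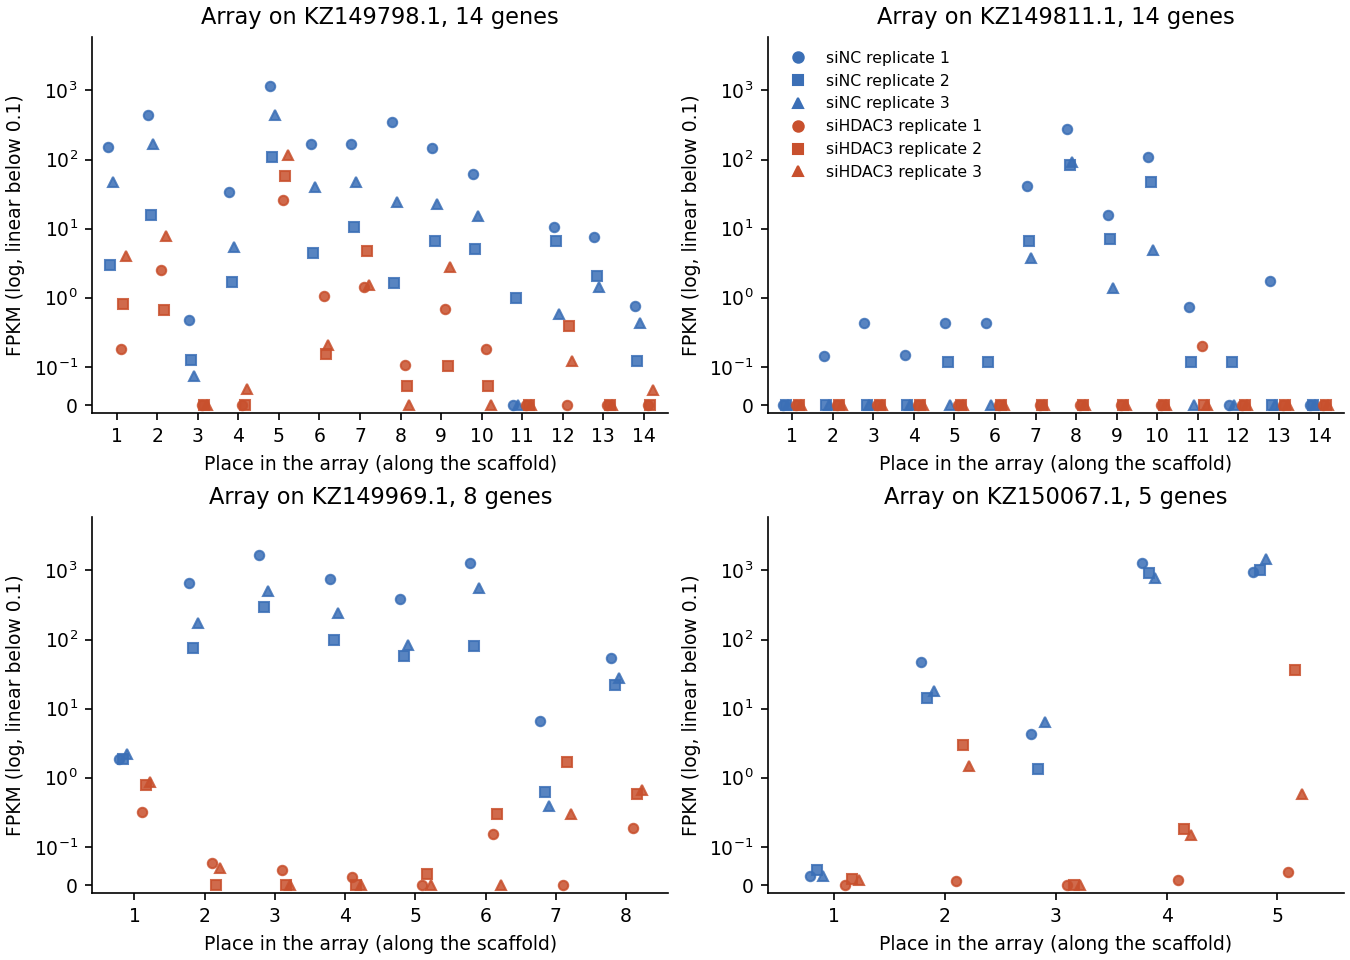
FPKM of each gene (y axis, log scale, linear below 0.1) by its place in 4 arrays (x axis), for siNC (blue) and siHDAC3 (orange), with circles, squares and triangles for replicates 1, 2 and 3. On KZ149969.1 the siNC libraries stood at 57.9 FPKM or more at places 2 to 6 and the siHDAC3 libraries at 0.301 or less.

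The array of 5 genes on KZ150067.1 (221017 to 271210, minus strand) held the array gene with the lowest log2 change. Its summed FPKM was 2312, 1972 and 2283 in siNC and 0.0586, 39.6 and 2.25 in siHDAC3, and here the siNC libraries lay close together. HaOG208268, at place 4 (248199 to 254462), had 1295, 930.3 and 788 FPKM in siNC and 0.0130, 0.184 and 0.151 in siHDAC3. Its fragments numbered 46160, 41575 and 29379 in siNC and 1, 10 and 10 in siHDAC3. The mean was 8677-fold higher in siNC (log2 change -9.79, SE 0.25, limma adjusted p = 3.04e-05). The groups did not overlap, but HaOG208268 passed the filter through siNC only, so that its direction and the lack of overlap were set by the filter. At place 5 the FPKM were 966, 1026 and 1470.5 in siNC and 0.0353, 36.4 and 0.588 in siHDAC3 (log2 change -8.17, SE 1.29, adjusted p = 0.0095). siHDAC3 replicate 2 stood apart from the other siHDAC3 libraries in this gene, with fragments of 3, 2181 and 43 in replicates 1, 2 and 3.

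The other genes of that array were less abundant. At place 2, 46.9, 14.2 and 17.9 FPKM in siNC stood against 0.0104, 2.96 and 1.497 in siHDAC3, and the gene was called lower (log2 change -3.47, adjusted p = 0.0166). The gene at place 3, also called lower, had 4.29, 1.33 and 6.50 FPKM in siNC and no fragment in siHDAC3, which makes it at least 314-fold lower there (log2 change -2.18, adjusted p = 0.023). The genes at places 3 and 4 passed the filter through siNC only, so that their direction was set by the filter. Of the 4 calls of this array, 2 were left without siNC replicate 3 or without siHDAC3 replicate 3, those at places 4 and 5, and 3 or 4 without any other library. The gene at place 1 held at most 2 fragments in any library and did not pass the filter.

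The array of 14 genes on KZ149798.1 (3572881 to 3635894, plus strand) was 1 of the pair of longest arrays. Its genes were between 1647 and 1722 bases long. The summed FPKM was 2721, 166 and 817 in siNC and 31.9, 65.6 and 131 in siHDAC3. The groups did not overlap, but siNC replicate 2 was nearer to siHDAC3 replicate 3 than to siNC replicate 1. Of the 14 genes, 11 passed the filter and had log2 changes below 0, and 5 were called lower, at places 2, 6, 7, 10 and 13. Leaving out 1 library lost many of these calls. None of the 5 was left without siNC replicate 3 or without siHDAC3 replicate 3. There was 1 left without siHDAC3 replicate 1 or 2, 2 without siNC replicate 1 and 4 without siNC replicate 2. With fewer libraries the calls also fell over all tested genes, from 1232 lower to 663 without siNC replicate 3 and 689 without siHDAC3 replicate 3. The genes at places 10 and 13 passed the filter through siNC only. The leading gene, at place 5, had 1179, 108 and 445 FPKM in siNC and 25.7, 58.5 and 115 in siHDAC3. siNC replicate 2 lay under siHDAC3 replicate 3, so its groups overlapped and it was not called (log2 change -2.76, SE 0.93, adjusted p = 0.0959). The gene at place 2 had 441, 15.7 and 167 FPKM in siNC and 2.52, 0.655 and 7.93 in siHDAC3 (log2 change -4.85, SE 1.24, adjusted p = 0.0464). The gene at place 10 had 61.4, 5.05 and 15.1 FPKM in siNC and 0.178, 0.0506 and 0 in siHDAC3, with the smallest adjusted p of the array (log2 change -4.09, adjusted p = 0.0201). The leading gene took 46.7% of the summed mean in siNC and 86.9% in siHDAC3. At places 6 and 7 the log2 changes were -4.56 and -3.79 (adjusted p = 0.0454 and 0.0438). At place 13 the siNC libraries had 7.66, 2.04 and 1.44 FPKM and the siHDAC3 libraries no fragment, at least 87.6-fold lower. Of the other tested genes, those at places 4, 8, 9 and 12 did not overlap between groups and were not called (adjusted p = 0.064, 0.0975, 0.055 and 0.0959), and at place 1 the groups overlapped. Genes at places 3, 11 and 14 stayed under the filter.

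The other array of 14 genes lay on KZ149811.1 (527104 to 580438, plus strand), with gene lengths between 885 and 900 bases, and only 4 adjacent genes passed the filter. Summed FPKM was 449, 144 and 102 in siNC and 0.201, 0 and 0 in siHDAC3. The genes at places 7 to 10 were called lower, with no fragment in any siHDAC3 library. All 4 passed the filter through siNC only, so that their direction was set by the filter. Without siNC replicate 2, or without any 1 siHDAC3 library, place 8 alone was still called, and without siNC replicate 1 the call at place 9 was lost. Place 8 led with 281, 83.3 and 91.9 FPKM in siNC (log2 change -7.02, SE 0.49, adjusted p = 0.000595), at least 1859-fold lower in siHDAC3. Place 10 had 108, 46.8 and 4.86 FPKM in siNC and was at least 662-fold lower. Places 7 and 9, at 41.0, 6.72 and 3.75 FPKM and 15.7, 7.07 and 1.39 FPKM in siNC, were at least 206-fold and at least 100.5-fold lower. Each of the remaining 10 genes held at most 12 fragments in any library, and 2 of them held none at all. The gene models at places 7 to 14 were of equal length, 888 bases.

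On KZ150104.1 (3539 to 50409, plus strand), an array of 12 genes of 747 to 777 bases held 7 genes without a fragment in any library. Its gene at place 6 was among the 5 lowest by log2 change, and its other genes were added after their values were seen. Place 6 had 3003, 385 and 184 FPKM in siNC and 0.234, 0 and 0 in siHDAC3, from 3, 0 and 0 fragments in the latter. siNC replicate 1 was by far the highest (log2 change -9.13, SE 0.96, adjusted p = 0.00228). Place 5 next to it had 49.7, 16.1 and 23.4 FPKM in siNC and no fragment in siHDAC3, at least 314-fold lower (log2 change -4.79, adjusted p = 0.00127). Place 11 was called lower (log2 change -5.69, adjusted p = 0.0357). Place 12, with 116, 8.21 and 1.61 FPKM in siNC and no fragment in siHDAC3, was not called (log2 change -3.82, adjusted p = 0.0953). All 4 of these genes passed the filter through siNC only. The only other fragments of this array were 9 in siNC at place 1.

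The 3 arrays with the largest summed level over all libraries still had summed means of 899, 241 and 95.7 FPKM in siHDAC3, beside 3138, 2358 and 2424 FPKM in siNC. The next in this order were those on KZ149969.1 and KZ150067.1, described earlier, with 2.03 and 13.95 FPKM in siHDAC3. The array of 5 genes on KZ149917.1 (157652 to 177131, minus strand) had sums of 2766, 2989.5 and 3659 FPKM in siNC and 1094, 296 and 1308 in siHDAC3. Its genes are short, 369 to 396 bases. The gene at place 3 held 96.4% of the siNC sum, with 2579, 2894 and 3599.6 FPKM in siNC and 1029, 192 and 1150.5 in siHDAC3. The groups did not overlap, yet the gene was not called (log2 change -2.29, SE 0.68, adjusted p = 0.0702), and siHDAC3 replicate 2 was the lowest library. Its neighbour at place 2 was called lower, with 48.2, 12.5 and 5.30 FPKM in siNC and 0.301, 0 and 0.175 in siHDAC3 (log2 change -3.81, adjusted p = 0.0178). It passed the filter through siNC only, and its call was lost without siHDAC3 replicate 3 and with voom. At place 1 the groups overlapped, with 137, 82.0 and 53.8 FPKM in siNC and 63.8, 97.6 and 157 in siHDAC3 (log2 change 0.23, SE 0.45, adjusted p = 0.771). Places 4 and 5 rested on at most 31 fragments in any library and were not called (adjusted p = 0.756 and 0.565). Differences between neighbours were not tested.

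The array of 4 genes on KZ149989.1 (225122 to 254792, minus strand) was led by the gene at place 4. This gene had 4215, 138 and 2767 FPKM in siNC and 34.0, 40.0 and 172 in siHDAC3. siNC replicate 2 lay under siHDAC3 replicate 3, and the gene was not called (log2 change -4.22, SE 1.35, adjusted p = 0.0838). Far less abundant, the gene at place 3 had 28.3, 18.4 and 45.1 FPKM in siNC and 0.0748, 1.54 and 0.391 in siHDAC3, and was called lower (log2 change -4.25, SE 0.46, adjusted p = 0.00259). At place 2 the FPKM were 0.811, 1.75 and 5.20 in siNC and 1.65, 12.9 and 22.5 in siHDAC3, overlapping and not called (log2 change 1.60, adjusted p = 0.265). Place 1, at 45.8, 0.581 and 6.97 FPKM in siNC and 0, 0.212 and 1.74 in siHDAC3, was also not called (adjusted p = 0.207).

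The array of 6 genes on KZ149850.1 (879688 to 916380, plus strand) had sums of 4232, 550.4 and 2291 FPKM in siNC and 198, 211 and 313 in siHDAC3. Its leading gene, at place 1, had 2346, 513 and 1423 FPKM in siNC and 182, 202 and 289 in siHDAC3, and was the only one of the array called (log2 change -2.44, SE 0.55, adjusted p = 0.0325). This call was lost in 9 of 19 alternatives, among them 5 of the 6 that left out a library, all but siNC replicate 2, with adjusted p of up to 0.113. At place 4 the FPKM were 1735, 29.0 and 815 in siNC and 11.3, 5.04 and 21.1 in siHDAC3. Its groups did not overlap, but siNC replicates 1 and 2 were far apart, and it was not called (log2 change -4.89, SE 1.48, adjusted p = 0.0729). Place 6 had 106, 5.80 and 49.5 FPKM in siNC and 0.384, 2.72 and 1.56 in siHDAC3 and just missed the threshold (adjusted p = 0.0503). At place 5 the lowest siNC library and the highest siHDAC3 library both rounded to 2.81 FPKM, and at place 2 the groups overlapped (adjusted p = 0.311 and 0.478). Place 3 stayed under the filter.

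**Figure D5:**
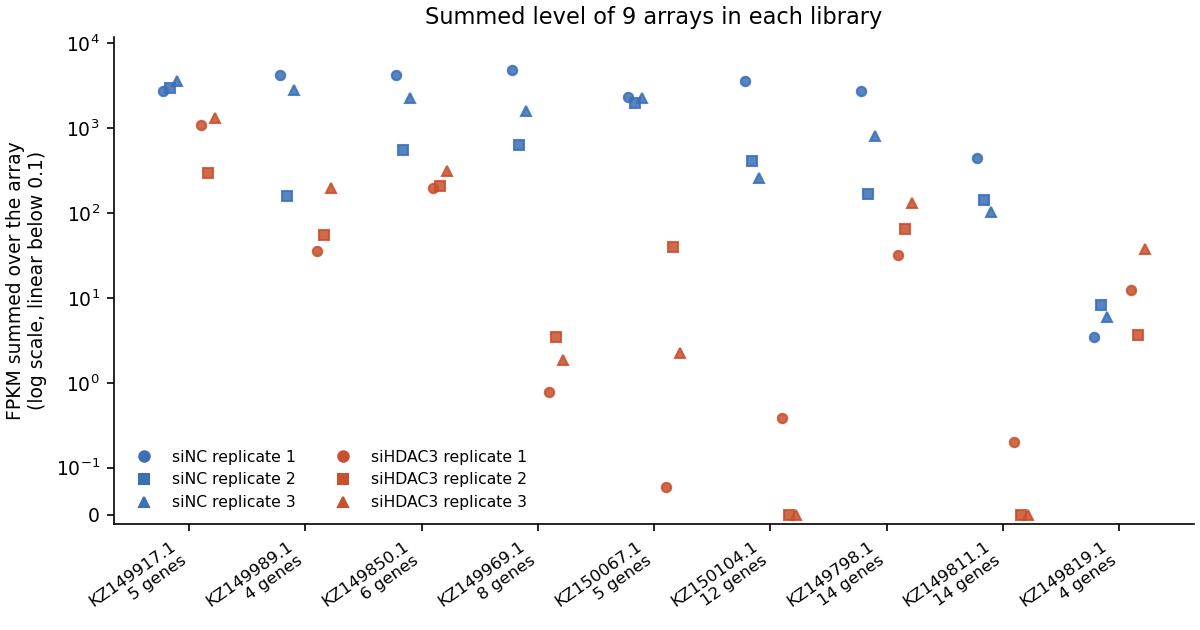
FPKM summed over all genes of an array (y axis, log scale, linear below 0.1) for 9 arrays named by scaffold and number of genes (x axis), ordered by the siNC mean, with siNC in blue and siHDAC3 in orange. Circles, squares and triangles stand for replicates 1, 2 and 3. The groups overlap on KZ149989.1 and KZ149819.1 and are apart in the other 7.

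Among the tested array genes, 2 were called higher in siHDAC3, HaOG200048 and HaOG206670, and 6 had an unadjusted p under 0.05 with a higher level, against 113 with a lower one. HaOG200048 is the gene at place 1 of 4 on KZ149905.1 (671771 to 676005). Fragments numbered 0, 0 and 1 in siNC, and 2205, 160 and 1865 in siHDAC3, where the FPKM were 84.4, 8.69 and 82.9. It passed the filter through siHDAC3 only. The log2 change was 5.32 (SE 0.85, limma adjusted p = 0.00957), and with voom on recovered fragments the adjusted p was 0.109. The genes at places 2 and 3, 1557 and 1560 bases long beside its 1557, had at most 0.911 FPKM in any library, and place 4 had no fragment.

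HaOG206670 stood at place 4 of 4 on KZ149819.1 (1868199 to 1879944), the only array with genes called in both directions. It had 0.301, 0.720 and 0.0960 FPKM in siNC and 5.98, 3.42 and 30.3 in siHDAC3 (log2 change 2.87, SE 0.72, adjusted p = 0.0438). This call was lost in 8 of 19 alternatives, with adjusted p between 0.0106 and 0.151 over all of them. At the opposite end, place 1 had 1.63, 7.15 and 4.94 FPKM in siNC and no fragment in siHDAC3, at least 97.7-fold lower, and was called (log2 change -2.33, SE 0.44, adjusted p = 0.0172). It passed the filter through siNC only, and its call was lost without siNC replicate 3 or siHDAC3 replicate 3. Between them, place 3 had 1.44, 0.360 and 0.864 FPKM in siNC and 3.42, 0.118 and 7.75 in siHDAC3, overlapping and not called (adjusted p = 0.438). Place 2 reached 3.11 FPKM in siHDAC3 replicate 1 and at most 0.0817 in any other library, and stayed under the filter.

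The following 2 arrays, with no gene called, were chosen after their values were seen. On KZ149889.1 (528092 to 545788), the gene at place 1 had 521, 527 and 531 FPKM in siNC and 614, 584 and 649 in siHDAC3. The siHDAC3 libraries lay above the siNC libraries, but the gene was not called (log2 change 0.22, adjusted p = 0.429). Its neighbour at place 2 had 374, 186 and 402 FPKM in siNC and 79.4, 238 and 117 in siHDAC3, with overlap. On KZ149896.1 (523931 to 565098) lay the only array with at least 2 tested genes whose changes were all above 0. Its gene at place 3 had 7.43, 2.19 and 7.04 FPKM in siNC and 12.0, 19.6 and 22.4 in siHDAC3, without overlap (log2 change 1.62, adjusted p = 0.0636). Place 4 had 0.872, 0.130 and 0.261 FPKM in siNC and 1.33, 5.57 and 4.82 in siHDAC3, also without overlap and not called (log2 change 1.69, adjusted p = 0.0556). At place 2, which led this array, the groups overlapped, with 103, 62.8 and 104 FPKM in siNC and 47.5, 202 and 96.4 in siHDAC3 (adjusted p = 0.873).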

How the data were processed

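For every gene, the authors deposited FPKM in each of the 6 libraries, with gene length and scaffold position. The submitters' processing notes name Bowtie 0.12.2 and the mouse builds mm8 and mm9, which do not match moth scaffolds. The sources used here give neither the counter nor the moth assembly, nor whether counting used strand. Columns named CK and siHA5 were taken as siNC and siHDAC3, since these are the only groups of the series, with replicate numbers from the column names. FPKM multiplied by gene length and by a divisor recovered for each library came out as whole fragments for 100% of the values above 0, within 0.1.

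Arrays were found in Python 3.11.15. Genes with at least 0.5 FPKM in 3 or more libraries were fitted as log2(FPKM + 1) by limma 3.58.1 (R 4.3.3), letting the variance follow the mean level, and p was adjusted by Benjamini-Hochberg over 11093 genes. This scale understates changes of low genes. The arrays, the lists and the tests were chosen with earlier results of these data known. Named arrays were the 2 with the most genes, the 3 with the largest summed FPKM, up to 3 in each direction with the most genes called (at least 2) and those called in both directions. Single genes were the 5 called genes in each direction with the largest changes, no overlap and a mean of at least 10 FPKM in the higher group. Identifiers were printed for at most 2 genes in each direction. Alternatives changed the pseudocount, scaling, filter, variance model, limits of the array rule and libraries included, 1 at a time, with voom on recovered fragments, and 2 were added after seeing the data. An exact permutation of 3 against 3 libraries cannot go below p = 0.1. The procedure was run on simulated data, with noise for the fit that was independent between genes and had the median spread at each level. This does not show how the fit behaves at the wider spread of the array genes. No sequences are shown, because the identifiers were not matched to the reference table.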

Additional observations from a re-analysis of the deposited data

How the results depend on the processing

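Intervals and limits from 0 cover counting error only. The number of array genes called lower (75) was 57 to 94 under the pseudocounts, scalings, filters, replicate block and variance settings run. It moved by over 1.5 times with voom on recovered fragments (47), at an adjusted p under 0.01 (35), with runs of at least 3 genes (137), with a length ratio of at most 2 (119) and without genes that passed the filter through 1 group only (30, chosen after seeing the data). As a share of the tested array genes, 41.4% fell to 29.0% of 473 with runs of at least 3 genes and 31.1% of 383 with a ratio of at most 2. It rose to 52.0% of 102 with runs of at least 5 genes. The share over all tested genes was 11.1%. The number called higher (2) was 10 when scaled to the sum of FPKM, 6 with quantile normalization, 7 with library weights, 1 without a filter, 0 with voom, 1 at an adjusted p under 0.01 and 1 without genes that passed through 1 group only. With other limits it was 0 with the tighter limit on gaps, 1 with the tighter limit on length, 11 with a ratio of at most 2, 13 with runs of at least 3 genes and 0 with runs of at least 5. Voom with summed library sizes, chosen after seeing the data, gave 54 lower and 8 higher array genes. With 1 library left out, array genes called lower numbered 39 to 81 and higher 1 to 3.

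Over all tested genes, those called higher (448) were 2868 when scaled to the sum, 1008 with quantile normalization, 1076 with library weights, 2668 with voom and summed library sizes, 90 at an adjusted p under 0.01 and 125 to 418 with 1 library left out. Those called lower (1232) were 1850 with library weights, 769 with voom and summed library sizes, 529 at an adjusted p under 0.01 and 663 to 1089 with 1 library left out. Arrays entirely lower (40) were 66 with a length ratio of at most 2, 96 with runs of at least 3 genes and 22 with runs of at least 5, and 40 to 48 with 1 library left out. Arrays entirely higher (2) were 7 when scaled to the sum, 10 with a ratio of at most 2, 18 with runs of at least 3, 0 with runs of at least 5, 1 with the tighter limit on gaps, and 2 to 6 with 1 library left out. Pairs with the same direction (79.2%) were 69.6% with runs of at least 3 genes and 88.1% with runs of at least 5. Looser limits and other thresholds change counts by construction, and for the other settings the cause was not tested.

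Replicate numbers are shared by the groups, and the labels do not say whether same-numbered libraries were paired. The deviations of same-numbered libraries correlated at -0.08, 0.07 and -0.01, and those of other pairs at between -0.17 and 0.16. With 3 libraries per group these values cannot settle whether there was pairing. The replicate block gave 60 array genes lower and 2 higher, with 853 lower and 177 higher over all genes. Of the 26 called genes that the rule for named genes gave, 9 were called under all 19 alternatives and none changed direction. Among the 9, HaOG205140 and HaOG208268 passed the filter through siNC only, as did others of the 26. For such genes the direction was largely set by the filter, so that its stability says little. Signs turned only in genes that were not called. With 1 library left out, the log2 change ran from -2.29 to 0.083 at place 2 on KZ149850.1 and from -1.21 to 0.015 at place 7 on KZ149969.1, each above 0 only without siNC replicate 1. On KZ149917.1 it ran from -0.10 to 0.57 at place 1, below 0 without siNC replicate 3 (-0.095) or siHDAC3 replicate 3, and from -0.16 to 1.34 at place 5, below 0 without siHDAC3 replicate 2. Place 4 there turned to 0.017 when scaled to the sum and 0.042 with quantile normalization.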

Other observations

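The scaffold KZ149811.1 carried the most arrays, 4 in all, and was chosen for this after the values were seen. None of its 4 arrays had a summed mean above 0.0894 FPKM in siHDAC3, against siNC means of 362, 232, 825 and 442 FPKM along the scaffold. In the array of 5 genes from 126330 to 148560, no siHDAC3 library held a fragment, while the gene at place 3 had 642, 61.2 and 325 FPKM in siNC (log2 change -7.88). In the array of 8 genes from 584431 to 613231, the gene at place 8 had 2280.1, 96.0 and 5.42 FPKM in siNC, with siNC replicate 1 far above the others. It was the only tested gene of that array and was not called (log2 change -6.70). No array gene of this scaffold reached 0.5 FPKM in a siHDAC3 library. Its tested array genes thus passed the filter through siNC only, and their direction was set by the filter.

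Some array genes under the filter were abundant in 1 or 2 siNC libraries. The highest was the gene at place 3 of the array of 5 genes on KZ149811.1 from 1851862 to 1873879, with 311, 0.355 and 64.8 FPKM in siNC and no fragment in siHDAC3. Among the 261 array genes under the filter, 127 had no fragment, 67 had fragments in siNC only, 24 in siHDAC3 only and 43 in both groups.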
